A study of Mus musculus with 4 samples.

Results

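The genes described are 8 effectors and modifiers of Notch signalling, measured on microarrays in endothelial cells sorted from mouse spleen. They are the transcriptional repressor genes Hey1, Hey2, Heyl and Hes1, the feedback inhibitor gene Nrarp, the fringe genes Lfng and Mfng, and Rbpj, which encodes the DNA-binding partner of activated Notch. They were found by their gene names among the non-control probes of 4 scanner files, which gave 10 of 39429 probes. All 8 genes passed the filter on dim signal and stood among 17362 tested genes.

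Both groups came from Ackr4GFP/wt mice, in which green fluorescent protein (GFP) stands at 1 allele of Ackr4, an atypical chemokine receptor gene, beside a wild-type allele. ACKR4-positive cells were CD31-positive, CD45-negative living spleen cells with GFP, and ACKR4-negative cells were the same kind of cells without GFP. Each group had 2 arrays, 1 from each of 2 independent sorts. By the protocol, each sort pooled cells from 2 to 3 mice. The sample titles, however, give each replicate a single mouse number, which is read here as the sort number. Whether an array stands for a pool or a single animal is thus not settled by the labels. The age and sex of the mice are not given in the sources used here.

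Notch is a cell surface receptor that is cut when a ligand on a neighbouring cell binds it. Its inner part then moves to the nucleus and joins RBPJ and a Mastermind protein on DNA, where it switches on target genes, the best known of which are those of the HES and HEY family. HES and HEY proteins are basic helix-loop-helix repressors, and in the embryo Hey1 and Hey2 act in the formation of arteries. NRARP is induced by Notch and limits it, and fringe enzymes add sugars to Notch receptors and so change which ligands activate them.

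Signal was well above background for 54.9% to 58.3% of the probes of an array. Levels are log2 processed signals relative to the 75th percentile of their array, so 0 equals that percentile, and levels of different genes cannot be set against each other because probes differ in brightness. The sorting gene served as a check of the labels. Ackr4 had levels of -0.21 and 2.55 in ACKR4-positive cells, against -7.53 and -7.50 in ACKR4-negative cells. The median spike-in signal was 847 on ACKR4-negative replicate 1 and 2804.5 to 3432 on the other arrays. All 4 arrays lay on 1 slide and were scanned together.

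ACKR4-positive cells carried much less signal of most of these genes. Hey1, Hey2, Heyl, Nrarp and Mfng fell, by 2.22 to 7.48 on the log2 scale, while Hes1, Lfng and Rbpj did not pass the test and none rose. So 5 of 8 genes were called lower and 0 higher at an adjusted p under 0.05 (limma, Benjamini-Hochberg over all tested genes). The background was 5.62% of all tested genes called, 3.71% lower and 1.91% higher. Hey2 and Heyl passed the filter only through the ACKR4-negative arrays, where they are brighter, so they could hardly have been called higher. With signal well above background required on all 4 arrays, 3 of 6 genes were called, beside 2.81% of all tested genes. The median log2 fold change was -2.52 over the 8 genes and 0.04 over all tested genes. With sort number as a block in the fit, again 5 were called lower and 0 higher, beside 15.3% of all genes called, 8.55% lower and 6.75% higher. The genes were selected with earlier results of these arrays known, so the count describes them and is no independent evidence. In sorted cell samples, fewer cells of a type and less RNA per cell cannot be told apart.

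**Figure D1:**
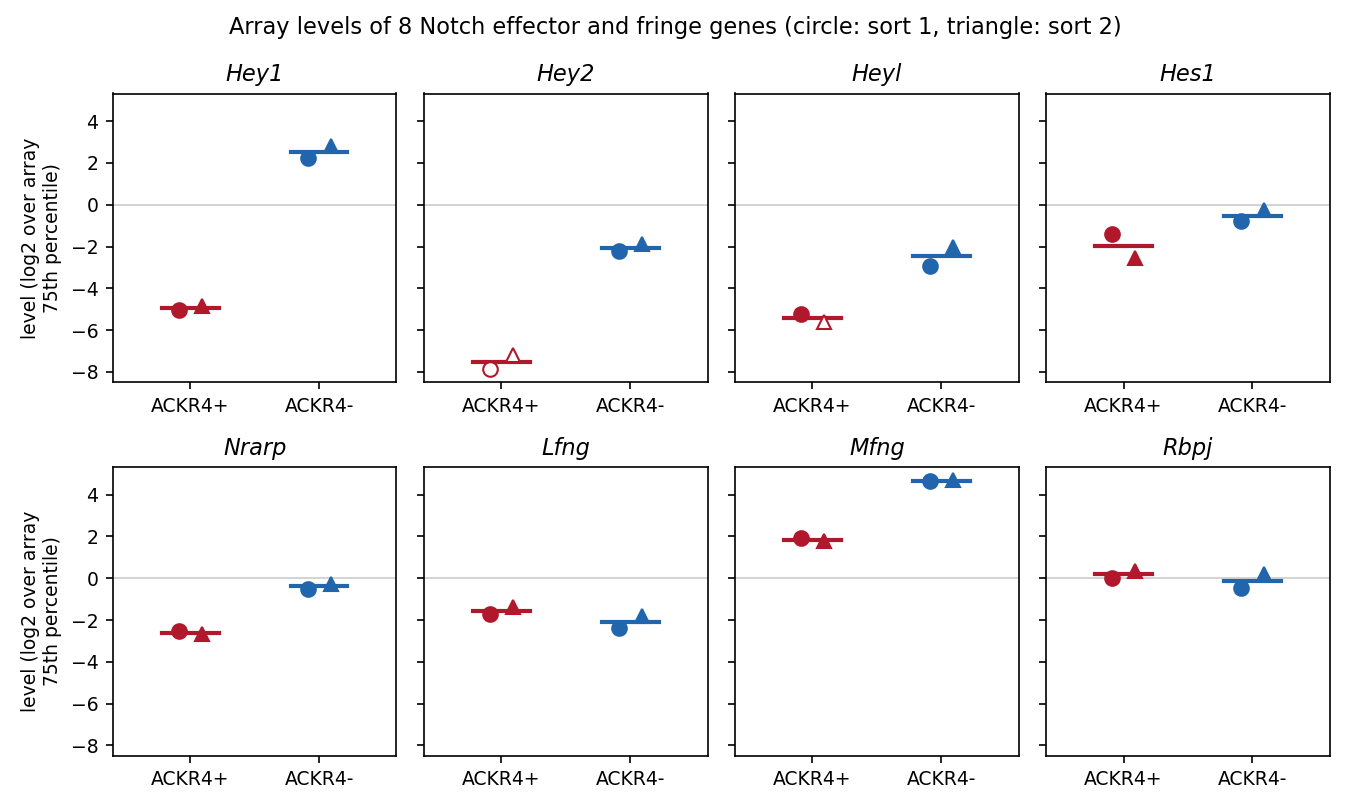
Level of each gene (vertical axis, log2 relative to the 75th percentile of the array) on the 2 ACKR4-positive (red) and 2 ACKR4-negative (blue) arrays. Circles are sort 1, triangles sort 2, bars group means, and open symbols mark arrays where the probe was not well above background. The groups are apart in all panels but that of Rbpj. Hey1 lies at -5.04 and -4.86 in ACKR4-positive cells, against 2.25 and 2.80 in ACKR4-negative cells.

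Hey1, a repressor gene of the arterial programme, was bright in 1 group and dim in the other. Its level was -5.04 and -4.86 in ACKR4-positive cells, against 2.25 and 2.80 in ACKR4-negative cells. In processed signal, this was 28.8 and 20.3 in ACKR4-positive cells and 3664 and 4585 in ACKR4-negative cells. The ACKR4-positive arrays thus lay near the dimmest measurable level and the ACKR4-negative arrays well above the 75th percentile, with no overlap. The log2 fold change was -7.48 ± 0.32 (SE, n = 2 arrays per group, adjusted p = 0.00638, limma), or 178-fold lower, with differences of -7.29 in sort 1 and -7.66 in sort 2. The probe was well above background in 4 and 3 of its 4 spots on the ACKR4-positive arrays, so the low level was itself measured. It lies on the minus strand of chromosome 3 at 8663432 to 8663491 (mm9). Which part of the transcript the probes cover is not annotated in the sources used here.

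Hey2, its close relative, had levels of -7.86 and -7.20 in ACKR4-positive cells, against -2.23 and -1.88 in ACKR4-negative cells. None of its spots was well above background on the ACKR4-positive arrays and all were on the ACKR4-negative arrays. The measured log2 fold change was -5.48 ± 0.36 (adjusted p = 0.00871), with differences of -5.63 in sort 1 and -5.32 in sort 2. Because the low side lay in the background, the fall is also given as a bound of 12.3-fold. It raises any ACKR4-positive level below the dimmest measurable one of that array to that level. With another background correction (normexp), which also adds an offset of 50 to every signal, the log2 fold change was -1.97 and the call was kept (adjusted p = 0.0344). That is a smaller change than the bound, which is 3.62 on the log2 scale. Bounds given here and below therefore depend on the background correction and are no strict minimum. With normexp Hey1 had -5.64 (adjusted p = 0.00385). The Hey2 probe lies on the minus strand of chromosome 10 at 30552729 to 30552788 (mm9).

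Heyl, the third HEY gene, known in mice also as a Notch target of vascular smooth muscle, had levels of -5.21 and -5.63 in ACKR4-positive cells, against -2.91 and -2.0002 in ACKR4-negative cells. The groups did not overlap, but the probe was well above background on only 1 of the 2 ACKR4-positive arrays, that of sort 1. The log2 fold change was -2.96 ± 0.42 (adjusted p = 0.0332), with differences of -2.30 in sort 1 and -3.63 in sort 2. Leaving out any single array ended the call (log2 fold change -3.42 to -2.51, adjusted p = 0.0502 to 0.0976) and with normexp, which gave -1.30 (adjusted p = 0.141). Its probe lies on the plus strand of chromosome 4 at 122926975 to 122927034 (mm9).

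Hes1, the most widely expressed gene of the HES group, was present in both groups. Its level was -1.42 and -2.53 in ACKR4-positive cells, against -0.79 and -0.27 in ACKR4-negative cells. The groups did not overlap, yet the 2 ACKR4-positive arrays lay further from each other than the nearest arrays of the 2 groups did. The log2 fold change of -1.44 ± 0.48 did not pass the test (adjusted p = 0.249), and its 95% interval, not adjusted for the number of genes, ran from -2.73 to -0.16. The difference was -0.62 in sort 1 and -2.27 in sort 2. It lost its size most without ACKR4-positive replicate 2, at -0.89, and gained most without ACKR4-positive replicate 1, at -2.003. The probe lies on the plus strand of chromosome 16 at 30067820 to 30067879 (mm9).

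Nrarp, whose small ankyrin repeat protein binds the cut Notch receptor and promotes its loss, fell as well. Its level was -2.53 and -2.68 in ACKR4-positive cells, against -0.50 and -0.27 in ACKR4-negative cells. All spots were well above background on all 4 arrays, and replicates within a group lay far closer together than the groups did. The log2 fold change was -2.22 ± 0.28 (adjusted p = 0.0239), or 4.65-fold lower, with differences of -2.02 in sort 1 and -2.41 in sort 2. The value hardly moved when any 1 array was left out (-2.33 to -2.10), but the call was lost in each of these smaller fits (adjusted p = 0.0687 to 0.138). The probe lies on the plus strand of chromosome 2 at 25038038 to 25038097 (mm9).

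The fringe genes differed from each other. Mfng, manic fringe, was bright in both groups, with processed signals of 3583 and 2045 in ACKR4-positive cells and 19299 and 17031 in ACKR4-negative cells. Its level was 1.92 and 1.79 in ACKR4-positive cells, against 4.65 and 4.70 in ACKR4-negative cells. The replicates of each group nearly coincided. The log2 fold change was -2.82 ± 0.26 (adjusted p = 0.0137), or 7.06-fold lower, with differences of -2.73 in sort 1 and -2.91 in sort 2. A separate probe of Mfng gave -2.87 ± 0.28 (adjusted p = 0.0136 over all tested probes). The probes lie on the minus strand of chromosome 15 at 78586430 to 78586489 and at 78586332 to 78586391 (mm9). The call was lost without either ACKR4-negative replicate 1 or 2 (adjusted p = 0.0681 and 0.0673), at log2 fold changes of -2.84 and -2.79.

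Lfng, lunatic fringe, lay slightly the other way. Its level was -1.73 and -1.39 in ACKR4-positive cells, against -2.39 and -1.80 in ACKR4-negative cells. The groups did not overlap, but by less than the distance between replicates, and the log2 fold change of 0.53 ± 0.35 did not pass the test (adjusted p = 0.600, 95% interval -0.38 to 1.45). Leaving out ACKR4-negative replicate 1 brought it to 0.24 (adjusted p = 0.988), and leaving out ACKR4-negative replicate 2 to 0.83 (adjusted p = 0.744). The probe lies on the plus strand of chromosome 5 at 141091224 to 141091283 (mm9).

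Rbpj was the gene with the smallest difference. Its level was 0.03 and 0.37 in ACKR4-positive cells, against -0.48 and 0.21 in ACKR4-negative cells. The groups overlapped, and the log2 fold change was 0.34 ± 0.36 (adjusted p = 0.784, 95% interval -0.62 to 1.30). That interval holds a change of -0.62 as well as one of 1.30, so equal levels are not shown. Leaving out ACKR4-negative replicate 1 brought it to -0.0048 (adjusted p = 0.999). A dimmer probe of Rbpj was well above background on only 1 array of each group and was not tested, and its levels were -5.15 and -5.68 in ACKR4-positive cells and -4.72 and -5.40 in ACKR4-negative cells. The tested probe lies on the plus strand of chromosome 5 at 54048503 to 54048562 and the dimmer one at 54044777 to 54044836 (mm9).

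Between sorts, the 5 called genes and Hes1 were lower and Lfng and Rbpj higher in both. The groups did not overlap for 7 of the 8 genes, 6 lower and 1 higher, beside a background of 44.9% of tested genes without overlap, 21.6% lower and 23.3% higher. With only 2 arrays a group, a lack of overlap is therefore common and carries little weight by itself. The 2 sorts gave closer differences for Hey1, Nrarp and Mfng than for Heyl and Hes1, as the values above show. Those of Hey2 were also close, but its ACKR4-positive signals lay in the background, at 4.08 and 4.02. Its closeness between sorts is therefore partly that of floor values.

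**Figure D2:**
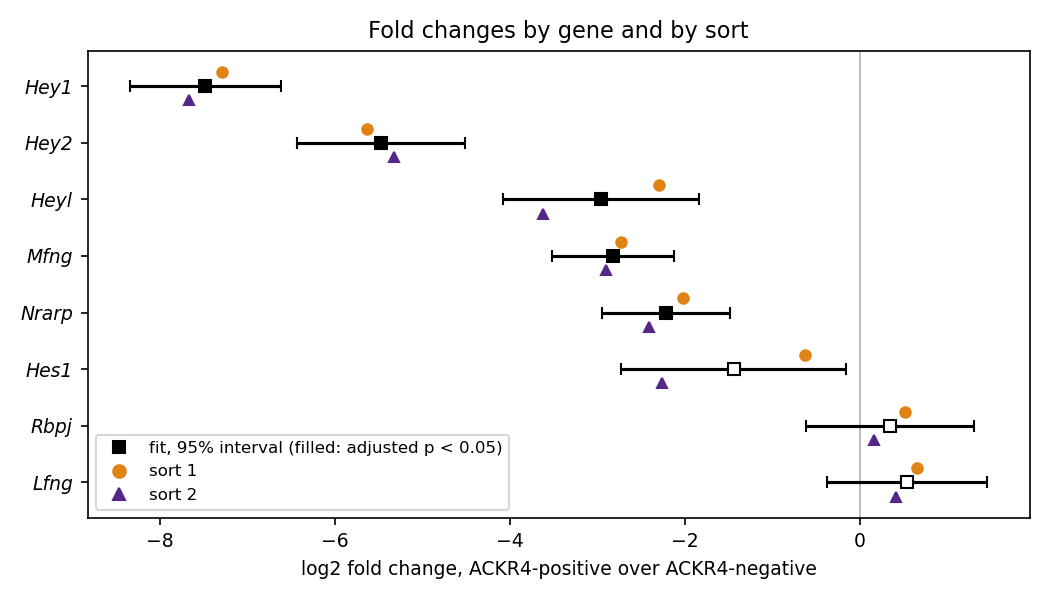
Log2 fold change, ACKR4-positive over ACKR4-negative (horizontal axis), of each gene with its 95% interval from the fit (squares, filled where the adjusted p was under 0.05) and the difference within sort 1 (orange circles) and sort 2 (purple triangles). Hey1 and Hey2 lie furthest from 0, at -7.48 and -5.48, and the sorts are furthest apart for Hes1 and Heyl.

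Promoter sequences were examined in members that fell (Hey2 and Nrarp) and members that did not pass the test (Lfng and Rbpj), because RBPJ acts at the promoters of its targets. The RefSeq table (GRCm38.p6) held 5 windows for these 4 of the 8 genes. Each window had 300 bases, ending 50 bases after the annotated start. The 250 bases before the start are printed below, 5′ to 3′ on the strand of the gene, for chr10:30842784-30843033 (minus strand), chr2:25180508-25180757, chr5:140607091-140607340 and the first of the Rbpj starts, chr5:53590096-53590345 (plus strand). Capitals mark TGGGAA, a core of the RBPJ motif, and CACGTG, an E-box that HEY proteins can bind, on either strand, each with bases of the longer form CGTGGGAA where present.
Hey2: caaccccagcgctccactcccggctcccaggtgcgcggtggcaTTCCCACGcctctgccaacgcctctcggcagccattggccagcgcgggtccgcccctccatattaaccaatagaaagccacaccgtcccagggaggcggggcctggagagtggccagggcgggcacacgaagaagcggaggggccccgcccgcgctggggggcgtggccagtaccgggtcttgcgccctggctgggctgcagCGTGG
Nrarp: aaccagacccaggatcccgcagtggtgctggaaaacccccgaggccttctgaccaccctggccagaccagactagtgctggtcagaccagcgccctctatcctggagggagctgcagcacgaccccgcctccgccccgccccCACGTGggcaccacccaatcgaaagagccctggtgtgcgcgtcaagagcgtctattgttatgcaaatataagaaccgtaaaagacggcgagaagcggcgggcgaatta
Lfng: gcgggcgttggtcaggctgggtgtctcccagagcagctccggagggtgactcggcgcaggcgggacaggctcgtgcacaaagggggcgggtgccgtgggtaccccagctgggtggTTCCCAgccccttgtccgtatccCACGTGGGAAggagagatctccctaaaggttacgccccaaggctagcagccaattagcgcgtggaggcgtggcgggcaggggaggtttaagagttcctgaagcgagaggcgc
Rbpj: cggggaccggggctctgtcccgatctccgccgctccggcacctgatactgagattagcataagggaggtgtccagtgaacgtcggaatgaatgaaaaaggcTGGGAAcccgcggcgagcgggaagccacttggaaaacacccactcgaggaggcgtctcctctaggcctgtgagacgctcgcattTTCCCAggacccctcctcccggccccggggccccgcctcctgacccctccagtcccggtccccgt

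The motif TGGGAA was found 2 times in the Hey2 window, 207 and 3 bases before the start, the second of which runs over the start and is cut off in print. Both copies are part of CGTGGGAA. Lfng had 2 copies of TGGGAA, 135 and 108 bases before the start, of which the nearer is part of CGTGGGAA and overlaps the E-box. Rbpj also had 2, 149 and 65 bases before its first start, and its other window held the second of them again. Nrarp had no TGGGAA in this window and an E-box 108 bases before the start. In all 32851 promoter windows of the table, read on both strands, TGGGAA was present in 25.6% and CACGTG in 7.15%. The longer CGTGGGAA, chosen after these promoters had been read, was present in 0.734%. The form TGTGAA was in none of these windows and in 14.8% of all. The class C box CACGNG, whose letters also match CACGTG, was in those of Nrarp and Lfng and in 27.5% of all. In Nrarp the only match of CACGNG was the E-box itself, read on both strands. The N box CACNAG was in those of Nrarp and Lfng and in 42.5% of all. Copies of the RBPJ core thus stood both in a promoter whose gene fell, Hey2, and in promoters of genes that did not pass the test, Lfng and Rbpj. A match of letters is no evidence of binding.

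The rest of the pathway was followed in lists ordered by role. Beside their counts stand 5.62% of all tested genes called, or 15.3% with sort as a block. An unadjusted p under 0.05 (limma) was found for 2823 of all 17362 tested genes. Of 12 other HES family and partner repressor genes, 10 were tested, 1 fell, 0 rose and 9 did not pass the test, with a median log2 fold change of -0.91. The member that fell was Bhlhe41, a circadian repressor of the same protein class, at -2.49 ± 0.38 (adjusted p = 0.0389, bound 2.44-fold lower). Hes5, the other well-known Notch target of the HES group, had levels of -2.88 and -2.19 in ACKR4-positive cells, against -1.61 and -1.31 in ACKR4-negative cells, and differed by -1.07 ± 0.36 on the log2 scale (adjusted p = 0.249). With sort as a block, 4 of the 10 fell. Besides Bhlhe41 these were Hes5 (adjusted p = 0.0375) and Id1 and Id3 (adjusted p = 0.00926 and 0.0158), which encode inhibitors of basic helix-loop-helix proteins.

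Of 23 other Notch target and feedback genes, 19 were tested, 5 fell, 0 rose and 14 did not pass the test (median -0.59). The netrin receptor gene Unc5b fell by 8.49 ± 0.36 (adjusted p = 0.00638), and Gja5, which encodes an arterial connexin, fell by 8.09 ± 0.60 (adjusted p = 0.0103, bound 106-fold lower). Efnb2, the ephrin ligand of arteries, fell by 3.91 ± 0.36 (adjusted p = 0.0137). The chemokine receptor gene Cxcr4 stood at -5.35 ± 0.64 (adjusted p = 0.0219, bound 14.9-fold lower) and the zinc finger repressor gene Snai2 at -2.92 ± 0.37 (adjusted p = 0.0250). With sort as a block 8 fell, the 3 further ones being Tmem100, Notch3 and Gja4 (adjusted p = 0.0161, 0.00147 and 0.00511). Notch3 is mainly a receptor of mural cells and is also in the list of mural markers described below.

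Nuclear partners of RBPJ came next. Of 27 co-activator and co-repressor genes, all were tested and 0 passed (median 0.05, limma), while 4 had an unadjusted p under 0.05, 2 higher and 2 lower. The smallest p were those of Tle3 and Tle4, co-repressors that HES proteins recruit, at -1.28 ± 0.27 (adjusted p = 0.0866) and 1.09 ± 0.27 (adjusted p = 0.130). With sort as a block 2 rose, Tle4 and L3mbtl3, and 3 fell, Tle3, Fhl1 and Maml3 (adjusted p = 0.0169 to 0.0293). That fit called 15.3% of all tested genes, and the calls of this list are close to that share.

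Enzymes that act on the receptor were taken in 2 lists. Of 8 other glycosylation genes 0 passed (median 0.01, limma, 1 with an unadjusted p under 0.05). Eogt, which adds N-acetylglucosamine to Notch repeats, had the smallest p at -2.37 ± 0.45 (adjusted p = 0.0654, and 0.00237 with sort as a block, the only call of this list in that fit). Next came Xxylt1, a xylosyltransferase gene, at -0.67 ± 0.34 (adjusted p = 0.475). Rfng, radical fringe, the remaining fringe gene, had levels of 1.63 and 1.79 in ACKR4-positive cells, against 1.17 and 1.42 in ACKR4-negative cells, and a log2 fold change of 0.42 ± 0.28 (adjusted p = 0.615). Of 23 genes of cleavage, trafficking and turnover, 22 were tested and 0 passed (median 0.08, limma, 2 with an unadjusted p under 0.05). The smallest p were those of Fbxw7, a ubiquitin ligase subunit that degrades active Notch, at 1.23 ± 0.29 (adjusted p = 0.114), and Furin, a protease that matures the receptor, at -1.13 ± 0.27 (adjusted p = 0.115). With sort as a block Fbxw7 and Aph1b rose and Furin fell (adjusted p = 0.0190, 0.0257 and 0.0253). These calls too are close to the 15.3% of all tested genes called in that fit.

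Upstream, 3 of 10 tested ligand and receptor genes fell and 3 rose. These counts leave out the receptor gene Notch3, kept in the target list above, which stood at -3.86 ± 0.86 (adjusted p = 0.0977, limma, and 0.00147 with sort as a block). Dll4 (bound 200-fold lower), Notch4 and Jag2 stood at -7.71 ± 0.26, -5.66 ± 0.44 and -5.71 ± 0.49, and Dll1, Jag1 and Dner at 3.63 ± 0.32, 3.44 ± 0.36 and 1.89 ± 0.30 (adjusted p = 0.00638 to 0.0410, limma). Notch2, at 1.81 ± 0.32 (adjusted p = 0.0553), was called higher in the blocked fit (adjusted p = 0.00795), which gave 4 higher and 3 lower. Testing all probes, dim ones included, gave 2 higher and 3 lower.

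**Figure D3:**
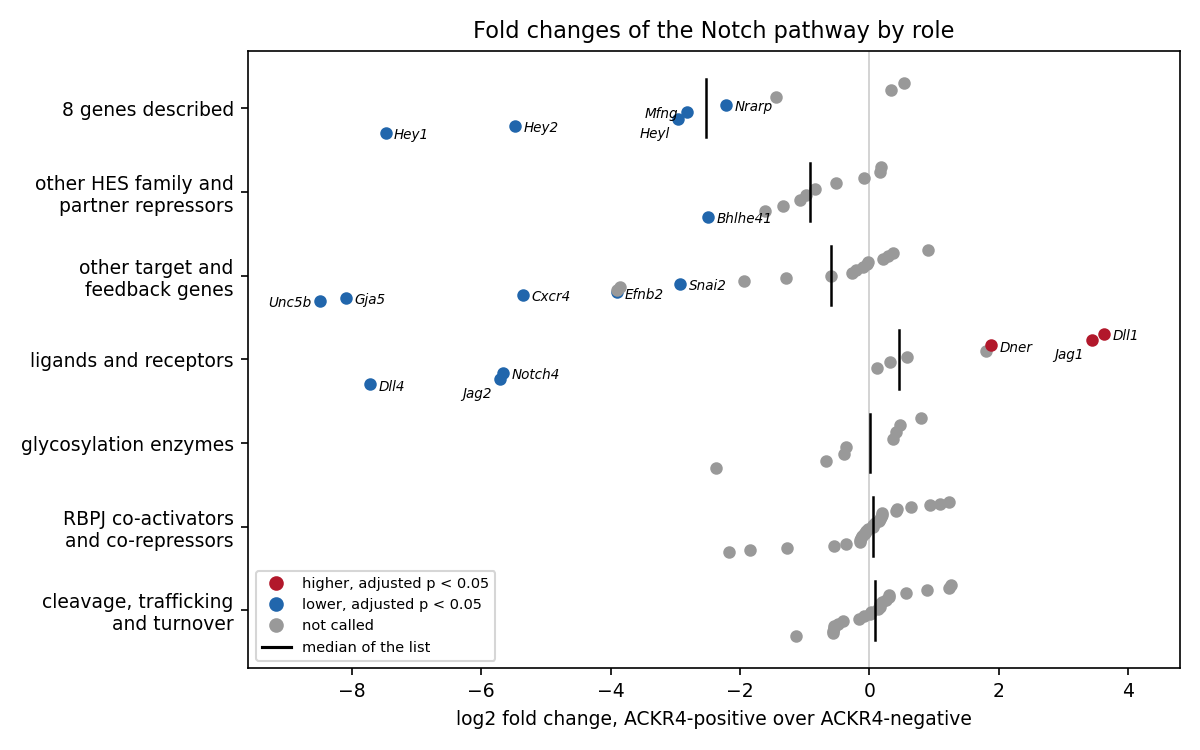
Log2 fold change, ACKR4-positive over ACKR4-negative (horizontal axis), of every tested gene in 7 role groups of the Notch pathway. Blue and red dots are genes called lower and higher, grey dots are not called, and black bars are medians. Calls lie among the 8 genes described, the other repressors and targets, and the ligands and receptors, while the 3 lowest groups hold 0 calls and have medians of 0.01 to 0.08.

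For each gene, the tested genes with the most similar pattern were found by the Euclidean distance of their 4 levels after removal of each gene's mean, over 13466 named genes. Nearest to Hey1 were Gp5, a platelet glycoprotein gene, and Gucy1b1, which encodes a subunit of soluble guanylate cyclase, at distances of 0.27 and 0.29. Nearest to Hey2 were P2ry12, a platelet receptor for ADP, and Fam89a (0.18 and 0.22). On the ACKR4-positive arrays Hey2, P2ry12, Fam89a, Gp5 and Gucy1b1 were all not well above background, so that side of these distances compares floor values. Heyl lay closest to Snai2 (0.17) and Depp1 (0.28), and Hes1 to the proteoglycan gene Bgn (0.15) and Tram2 (0.24). Nrarp lay closest to the cytokine receptor gene Lifr (0.059) and to Cd34 (0.16). Mfng lay closest to Fblim1 (0.12) and Rcsd1 (0.18). Lfng and Rbpj differ little between arrays, and their distances were small, at 0.0288 from Lfng to Trmt2b and 0.0225 and 0.0524 from Rbpj to Zmpste24 and Zfp11. With 4 arrays, such likeness mostly reflects the size of the group difference.

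Of the cell type marker lists, those of platelets and mural cells had far lower sums in ACKR4-positive cells. All 12 endothelial markers, Pecam1 and Cdh5 among them, were well above background on all 4 arrays. Their summed level, as multiples of the 75th percentile, was 526 and 683 in ACKR4-positive cells, against 744 and 800 in ACKR4-negative cells. A sum is led by its brightest probes, here Cldn5, at 8.04 and 8.73 in ACKR4-positive and 8.16 and 8.53 in ACKR4-negative cells. Of the 12 markers 3 fell, Esam, Kdr and Emcn, with log2 fold changes of -1.92, -2.71 and -5.24. The blocked fit called 4 endothelial markers lower and 1 higher. Beside the marker counts stand 5.62% of all tested genes called, or 15.3% in the blocked fit. Megakaryocyte and platelet markers fell in 10 of 12, and their sum was 1.28 and 2.78 in ACKR4-positive cells, against 103 and 236 in ACKR4-negative cells. In that list Gp5, Gp6, Itga2b and Tubb1 were not well above background on either ACKR4-positive array. Mural and smooth muscle markers fell in 4 of 11 tested (Kcnj8, Abcc9, Myh11 and Cspg4), and their sum was 3.08 and 3.51 in ACKR4-positive cells, against 60.5 and 103 in ACKR4-negative cells, with Cnn1 and Myh11 not well above background on either ACKR4-positive array. Pdgfrb and Higd1b were among the mural markers not called (adjusted p = 0.0714 and 0.771, limma), and Rgs5 did not pass the filter on dim signal. In ACKR4-negative cells the mural sum was led by Abcc9 in sort 1, at 4.84, and by Acta2 in sort 2, at 5.42. In the blocked fit 9 of the 11 fell. Mural cells also express Heyl and Notch3. How far the CD31 gate of the sort kept mural cells or platelets out was not tested. The part of platelet or mural RNA in the values of the 8 genes was not tested.

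Sums of leukocyte and stromal markers differed less than those of platelet and mural markers. Single markers could still differ much without passing the test (limma). Lyz2 was at -5.44 (adjusted p = 0.206), Cxcl13 at -3.09 (adjusted p = 0.0570) and Dcn at 2.37 (adjusted p = 0.337). T cell markers summed to 3.88 and 3.92 in ACKR4-positive cells, against 4.60 and 4.96 in ACKR4-negative cells, with 1 of 4 tested fallen, Lck. B cell markers summed to 0.348 and 2.94 in ACKR4-positive cells, against 0.502 and 2.20 in ACKR4-negative cells, and thus differed by sort more than by group. Macrophage and granulocyte markers summed to 1.54 and 3.20 in ACKR4-positive cells, against 4.09 and 7.48 in ACKR4-negative cells, and fibroblastic reticular markers to 2.55 and 3.60 in ACKR4-positive cells, against 1.28 and 2.96 in ACKR4-negative cells. None of the 7 B cell, 9 macrophage and granulocyte and 7 fibroblastic reticular markers tested passed (limma, with 0, 2 and 2 at an unadjusted p under 0.05). Sort as a block, which called 15.3% of all tested genes, called 0 of the B cell markers. It called 4 macrophage and granulocyte markers lower, and 1 fibroblastic reticular marker lower and 2 higher. Erythroid markers summed to 16.4 and 59.4 in ACKR4-positive cells, against 375 and 26.3 in ACKR4-negative cells. Of 5 tested 2 fell, Epor and Gata1, by log2 fold changes of -4.17 and -7.28. Slc4a1, Hba-a1 and Alas2 were lower in sort 1 (-4.53, -4.51 and -4.81) and higher in sort 2 (0.60, 1.31 and 2.10). On the erythroid sum ACKR4-negative replicate 1 stood apart. Without that array Hey1 and Hey2 had log2 fold changes of -7.75 and -5.65 (adjusted p = 0.0166 and 0.0239). Heyl, Nrarp and Mfng had -3.42, -2.33 and -2.84 and lost their calls (adjusted p = 0.0502, 0.112 and 0.0681), which left 2 of the 8 called.

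**Figure D4:**
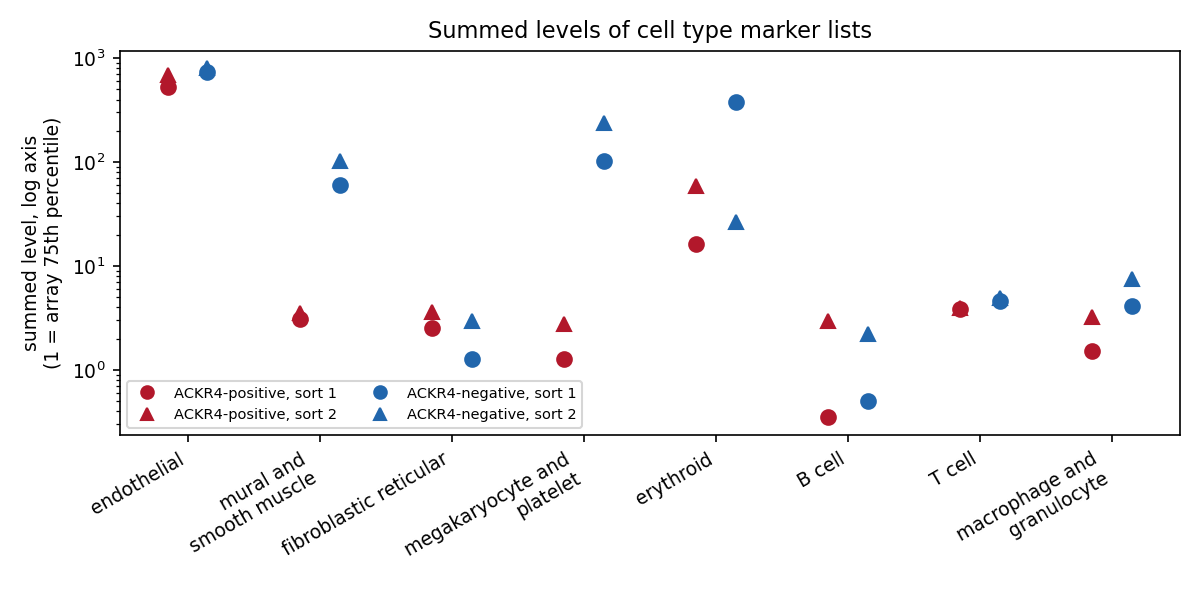
Summed level of the tested markers of each cell type (vertical log axis, 1 equals the 75th percentile of the array) on the ACKR4-positive (red) and ACKR4-negative (blue) arrays of sort 1 (circles) and sort 2 (triangles). Platelet and mural sums are far lower in ACKR4-positive cells, at 1.28 to 3.51 against 60.5 to 236. Endothelial sums are 526 and 683 against 744 and 800. Each sum is led by its brightest probes and can hide changes of single markers.

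Across the other processing settings, Hey1 and Hey2 were called in each one that kept their probes. Hey1 ranged from -7.75 to -5.64 in 16 settings and Hey2 from -5.81 to -1.97 in 15, since the stricter filter removed Hey2 and Heyl. Hes1 and Lfng were not called in any of 16 settings, with log2 fold changes of -2.003 to -0.89 and 0.24 to 0.83. With 1 array left out, 2 or 3 of the 8 genes were called in place of 5, while the share of all tested genes called was 2.23% to 5.14% in place of 5.62%.

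**Figure D5:**
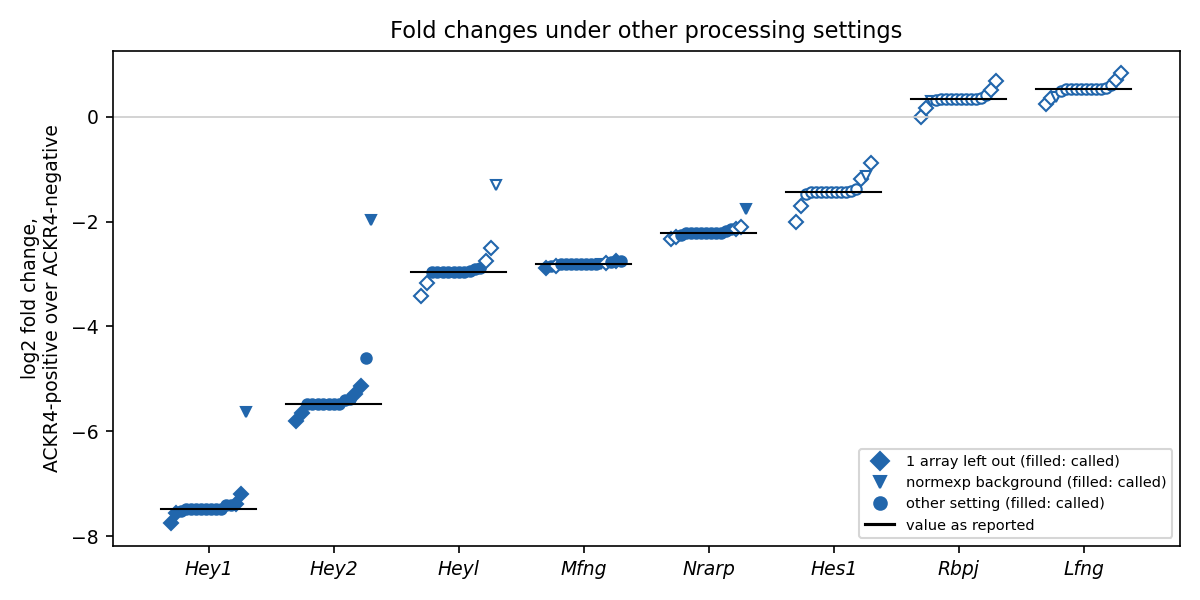
Log2 fold change of each gene, ACKR4-positive over ACKR4-negative (vertical axis), under the other settings (filled where called). Diamonds leave out 1 array, down-pointing triangles use normexp background correction, circles are the other settings and the black line is the value as reported. The points furthest from their lines are those with normexp for Hey1, Hey2 and Heyl, at -5.64, -1.97 and -1.30.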

How the data were processed

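RNA from 4 sorted cell samples was measured on 1-colour Agilent arrays. The deposited processed signals are intensities from Agilent Feature Extraction 10.7.3.1, named in the submitters' processing notes. Per the file headers, spatial and multiplicative trends and background were removed array by array and surrogate values stand in for low signals, and no scaling between arrays was found. The deposited table of intensities has a floor of 15 and a 75th percentile of 1498 to 1506 on each array, and served as an alternative. Between 6 and 20 ng of RNA was labelled per array.

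Spots marked as outliers were left out, and the others of a probe, 4 at most, were averaged as log2 signal. The 75th percentile of the array was subtracted. Testing required more than 50% of a probe's spots to be well above background on each array of 1 group or more, and the brightest tested probe stood for its gene. Names came from RefSeq by accession for 27508 probes, by current symbol for 3544 and through another probe for 167, and 8210 kept the file's name. Groups were compared by limma 3.58.1 (lmFit and eBayes, 2-sided, n = 2 each) in R 4.3.3, adjusted by Benjamini-Hochberg over 17362 genes at a threshold of 0.05, which gave 332 higher and 644 lower genes. Other software was Python 3.11.15, pandas 2.3.3 and matplotlib 3.10.9. The number of arrays limits the precision.

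Sort number pairs the arrays. In the labels, equal replicate numbers go with equal mouse numbers, and 2 independent sorts are named, and deviations from the group means of same-numbered arrays correlated at 0.605 over genes. With sort as a block, 2656 genes were called, the 976 among them.

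The 8 genes and all lists were chosen with earlier results of these arrays known. Genes of the other pathway lists were named if called, up to 6, or else as the 2 with the smallest p. Hes5, Rfng, Notch2, the cell type markers and those named for the block fit or as below background were chosen after their values were seen. Of the members, no promoter window was used for Hey1, Heyl, Hes1 and Mfng. One of the genes nearest in pattern is not reported here.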

Additional observations from a re-analysis of the deposited data

How the results depend on the processing

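Of 126 member values under 16 alternatives, 114 kept their direction and their side of the threshold, 11 lost the call and 1, that of Rbpj, changed sign, at -0.0048 without ACKR4-negative replicate 1 (range with 1 array left out -0.0048 to 0.68). The 11 were those of Heyl, Nrarp and Mfng given above. With 1 array left out, 2 to 3 members were called, as were 75 to 295 genes higher and 312 to 597 lower. These fits have fewer degrees of freedom and assume that a lone array varies like the other group. The stricter filter (well above background on all 4 arrays) tested 6 members and called 3, with 165 genes higher and 276 lower, since genes near background in 1 group drop out of it. The replicate block called 1172 genes higher and 1484 lower, and changed no call among the 8 members. An adjusted p under 0.1 called 529 genes higher. The share of lower calls and the direction of the 5 called members did not turn under quantile or median scaling, and median centring moved the median of all genes to 0.11. Signal over background limits Hey2 and Heyl, whose ACKR4-positive levels lie at or near it, and normexp, which changed the background correction and added an offset of 50 together, gave smaller differences. Which of these moved the values was not tested.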
